A study of Mus musculus with 8 samples.

Results

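Tubulin isotypes are the alpha and beta tubulins that different genes encode, and 10 of them were followed here by gene symbol, 4 alpha isotypes (Tuba1a, Tuba1b, Tuba1c and Tuba4a) and 6 beta isotypes (Tubb2a, Tubb2b, Tubb3, Tubb4b, Tubb5 and Tubb6). They are 10 of the 24346 genes listed for each library. The libraries were made from adipose-derived stem cells (ADSCs) of wild-type BALB/c males, 12 weeks old, whose gonadal fat had been digested with collagenase. In the 2D group the cells grew as conventional cultures (mice 2, 3, 4 and 5), and in the 3D group they grew in Matrigel, a basement membrane gel, as organotypic cultures (mice 1, 4, 5 and 7). Each group had 4 libraries of total RNA, 1 per mouse, and both kinds of culture came from mice 4 and 5. The Wnt3a and R-Spondin1 supplement and the passage of the sequenced 3D cultures are not given in the sources used here. The sample titles all name the culture. The description of the 3D library of mouse 1, however, ends in a number where the other descriptions name the culture. Whether this number stands for a passage is not stated.

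Alpha and beta tubulin pair into heterodimers, which assemble head to tail into microtubules, the hollow filaments of the mitotic spindle, of intracellular transport and of cilia. Isotypes of a family are close to each other over the folded core and differ mostly in the acidic tail at the carboxyl end, which lies on the microtubule surface and is the site of many modifications. Fibroblast-like cells mainly use Tuba1a to Tuba1c with Tubb5, Tubb2a and Tubb6, whereas Tubb3 is best known from neurons and Tubb4b and Tuba4a from ciliated cells among others.

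The final 18 codons before the stop codon are shown for 7 isotypes, because this stretch holds the tail in which most of them differ. Tubb2a and Tubb2b differ here at synonymous codons only. All sequences run 5′ to 3′ on the coding strand of the GENCODE M21 annotation (GRCm38), and capitals mark the last codon.
Tuba1c: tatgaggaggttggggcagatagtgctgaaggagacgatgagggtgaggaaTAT
Tuba4a: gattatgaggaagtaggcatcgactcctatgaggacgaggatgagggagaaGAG
Tubb2a: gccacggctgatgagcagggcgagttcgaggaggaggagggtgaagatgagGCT
Tubb2b: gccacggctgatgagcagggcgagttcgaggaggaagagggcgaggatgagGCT
Tubb3: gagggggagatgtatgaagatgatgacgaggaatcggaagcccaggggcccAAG
Tubb4b: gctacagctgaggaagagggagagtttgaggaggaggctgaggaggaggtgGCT
Tubb5: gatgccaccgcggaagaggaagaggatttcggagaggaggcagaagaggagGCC

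Tuba1c ends in the tyrosine codon TAT, on which the cycle of detyrosination and tyrosination acts, and Tuba4a ends in GAG. The 10 coding sequences have 444 to 451 codons, and the transcript used for each gene has 4 exons. Tuba1a, Tuba1b and Tuba1c lie within 107 kb of chromosome 15 (chr15:98931425-99038110), with Tuba1c on the plus strand and the others on the minus strand. Tubb2a and Tubb2b lie within 56.2 kb of chromosome 13 (chr13:34074274-34130466), both on the minus strand. Tuba4a is on chromosome 1, Tubb4b on chromosome 2, Tubb3 on chromosome 8 and Tubb5 on chromosome 17.

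Neighbouring copies are so alike that their reads may have been divided in error. Over the coding sequence, Tuba1a shared 98.3% of its bases with Tuba1b and 97.1% with Tuba1c, and Tubb2a shared 96.5% with Tubb2b. Of all 100-nt windows of the transcript, 65.1% in Tuba1a, 69.5% in Tuba1b and 53.4% in Tuba1c occur unchanged in a transcript of another gene, and so do 36.9% in Tubb2a, 27.8% in Tubb2b and 29.2% in Tubb4b. The windows of Tubb4b recur in its pseudogenes. No such window was found for Tuba4a, Tubb3, Tubb5 and Tubb6. The values of Tuba1a, Tuba1b, Tuba1c, Tubb2a, Tubb2b and Tubb4b are therefore uncertain in how reads were assigned, and sums are given beside the copies of Tuba1 and of Tubb2. These sums keep part of the uncertainty. Windows of Tuba1a, Tuba1b and Tuba1c also recur in Gm17383, among others, and windows of Tubb2a and Tubb2b in Tubb2a-ps2. No such sum is given for Tubb4b, whose pseudogenes are not among the listed genes.

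The values are FPKM, the fragments scaled to transcript length and to all mapped fragments that the authors computed per gene, here quantile normalized over the 18862 genes above 0 in any library. FPKM is a level per length, so levels of different genes can be set side by side. From the spacing of low FPKM values, depth came to 16.6 M to 17.3 M fragments per 2D library and 14.5 M to 15.7 M per 3D library. All 10 isotypes were above 0 in every library. The lowest value, that of Tubb3 in the 3D library of mouse 1, rests on an estimated 3.52 fragments, and 3 fragments of Tubb3 there correspond to 0.111 FPKM before normalization. These limits cover counting error only.

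Several libraries stood apart, and the cells did not carry the same markers in both groups. The cells are labelled mesenchymal stem cells, and 10 mesenchymal stem cell and stromal markers were checked. Of these, 7 were lower and 1 higher in 3D (limma's adjusted p below 0.05). Col1a1, a fibrillar collagen, was at 635, 434, 259.5 and 635 normalized FPKM in 2D and between 0.0037 and 0.107 in 3D, and the pericyte and stromal receptor Pdgfrb was listed at 0 in all 4 3D libraries. The summed level of the 10 markers was 2525, 2032, 1757 and 3611 normalized FPKM in 2D and 152, 1519, 2588 and 3180.2 in 3D. Ly6a, the gene for Sca-1 and the most abundant by its mean over all libraries, was at 58.6, 1429, 2473 and 3117 in 3D, most of the sum except in mouse 1, where Cd44 was higher. In each 2D library Col1a2 was the most abundant of the list, and it had the largest fall (log2 fold change -10.17). Ly6a was the marker called higher. Without normalization it was not called, and Cd44 was called lower in addition.

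Of 8 epithelial markers, 7 were higher in 3D and 0 lower, and Krt19 was not called without normalization. Their summed level was 31.8, 176, 694 and 31.6 normalized FPKM in 2D and 2390, 2794, 2908 and 2636 in 3D, with Krt8, a keratin of simple epithelia, as the most abundant gene by its mean over all libraries. Krt18 exceeded it in the 3D libraries of mice 4 and 5. Epcam, an epithelial adhesion molecule, was at most 0.0504 normalized FPKM in 2D and between 265 and 494 in 3D. In 3D, Col1a1, Col1a2 and Col3a1 were thus at most 0.107 normalized FPKM, and Pdgfrb was listed at 0. Transcripts of Ly6a, Cd44 and the epithelial markers were present in every 3D library. Mesothelial transcripts were found in 2 of the 2D libraries. The 5 markers of mesothelium, the lining of body cavities, reached sums of 816 and 2002 normalized FPKM with 2D cultures of mice 3 and 4, and of 1.99 and 0.525 with those of mice 2 and 5. In 3D they summed to 1.57, 33.7, 5.78 and 6.23, and Msln was the most abundant by its mean over all libraries.

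Of the 10 multiciliated cell markers, Gmnc was listed at 0 in every library, and 4 of the 9 others were higher in 3D. Their summed level was at most 2.17 normalized FPKM in 2D and 442, 126, 176 and 241 in the 3D libraries of mice 1, 4, 5 and 7. Most of it was Foxj1, a transcription factor of motile ciliogenesis, at 353, 107, 147 and 194. Dnah9, an axonemal dynein, was at 11.2 in the 3D library of mouse 1 and at most 0.239 in the others, while Mcidas and Dnah5 were at most 0.0489 in every library. The 3D library of mouse 1 thus stood apart in this list and in Ly6a. The part of other cell types in the tubulin values was not tested, and in these bulk libraries fewer cells of a type and less RNA per cell cannot be told apart.

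Limma's moderated test of 3D against 2D called 1 of the 10 isotypes higher and 7 lower at an adjusted p below 0.05. Over all 18862 genes, 21.2% were called higher and 20.3% lower. The isotype that rose was Tubb4b, and those that fell were Tuba1a, Tuba1b, Tubb2a, Tubb2b, Tubb3, Tubb5 and Tubb6. For Tuba1c and Tuba4a the difference did not pass. The groups of 4 libraries did not overlap for 8 isotypes, the same 8, and for 42.5% of all genes. The median log2 fold change of the isotypes was -1.22 and that of all genes 0.00. With the mouse as a replicate block, which rests on mice 4 and 5 and leaves 1 residual degree of freedom, limma called 0 of the isotypes and 0 of the 18862 genes. The lowest adjusted p of an isotype was then 0.111, and 6 isotypes and 5216 genes had an unadjusted p below 0.05, while all 10 fold changes kept their direction.

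**Figure D1:**
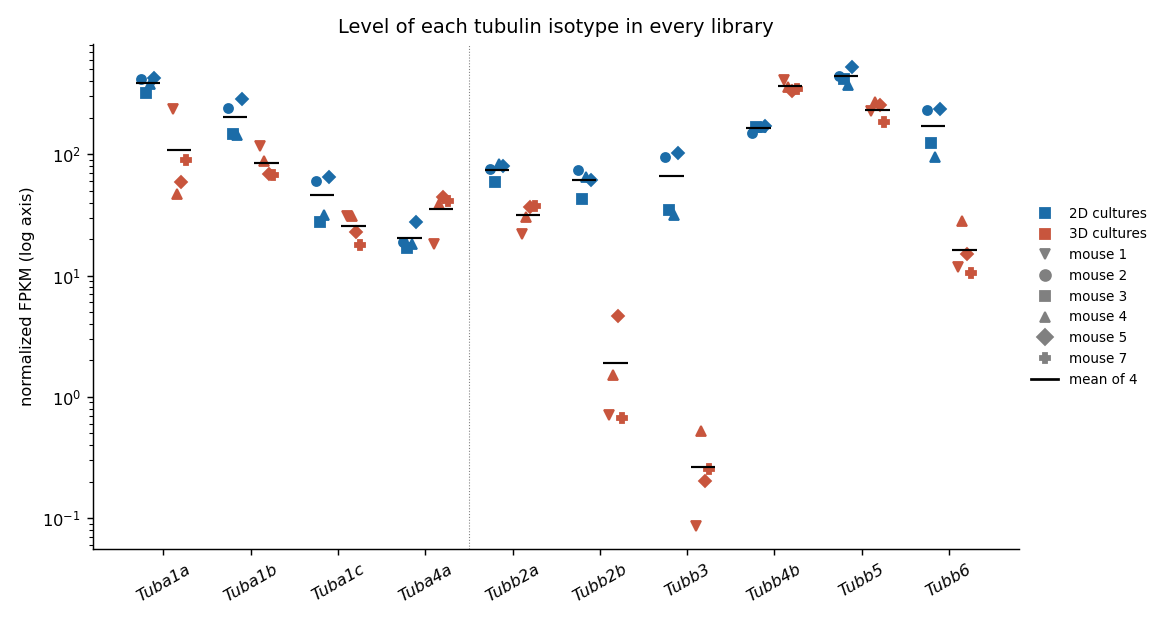
Normalized FPKM (log axis) of the 10 tubulin isotypes in the 4 2D libraries (blue) and the 4 3D libraries (red), with a symbol for each mouse and a black line at the mean of 4. Tubb4b is the isotype whose 3D libraries (333 to 413) all lie above the 2D libraries (149 to 171), and Tubb3 falls furthest, from 31.6 to 102 in 2D to between 0.0855 and 0.519 in 3D.

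Tubb5, the beta isotype of most dividing cells, was the most abundant beta tubulin in 2D. In 2D it stood at 439, 421, 371 and 524 normalized FPKM (mice 2, 3, 4 and 5), and in 3D at 226, 267, 254 and 184 (mice 1, 4, 5 and 7). Values of other genes below follow the same order of mice. The lowest 2D library, that of mouse 4, lay above the highest 3D library, which came from the same mouse. The log2 fold change of Tubb5 on log2(FPKM + 1) was -0.91 (SE, the standard error, 0.15, adjusted p by limma 0.00237). It was -1.50 on the values without normalization, and with only mice 4 and 5 the call was lost (-0.75, limma's adjusted p = 0.146).

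Tubb4b, an isotype of broad expression that is enriched in cilia, was at 149, 166, 168 and 171 normalized FPKM in 2D and at 413, 361, 333 and 347 in 3D. The 2D libraries were close to each other, and the 3D library of mouse 1 was the highest. The means were 163 ± 9.94 (SD, n = 4) and 364 ± 35.0 (SD, n = 4), and the log2 fold change was 1.15 (SE 0.09, adjusted p by limma 6.5e-05). The size of this rise depended on the scaling. On the values without normalization, Tubb4b was at 196, 177, 192 and 220 FPKM in 2D and at 361, 296, 253 and 277 in 3D, and the log2 fold change was 0.59 (limma's adjusted p = 0.00761, range over the alternatives 4.5e-05 to 0.119). For the 780 genes averaging 100 FPKM or more, the median log2 fold change was -0.05 after quantile normalization and -0.57 without it, while the median of all genes was 0.00 and 0.01. Quantile normalization therefore raises abundant genes in 3D against the deposited values, and Tubb4b was higher and Tubb5 lower in 3D under both and under a scaling to the upper quartile.

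In each 2D library Tubb5 exceeded Tubb4b, and in each 3D library Tubb4b exceeded Tubb5. The ratio of Tubb4b to Tubb5 was 0.339, 0.395, 0.452 and 0.326 in 2D and 1.82, 1.35, 1.31 and 1.89 in 3D. It was between 0.319 and 0.457 in 2D and between 1.28 and 2.03 in 3D without normalization. Since both are read within a library, this ratio does not depend on a common scaling factor.

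Tubb6, a beta isotype of fibroblasts and muscle precursors among others, ranked after Tubb5 in the mean of the 2D libraries, and its libraries overlapped there with those of Tubb4b. It stood at 234, 123, 94.8 and 238 normalized FPKM in 2D and at 11.7, 28.1, 15.2 and 10.5 in 3D. Mice 2 and 5 were high and mice 3 and 4 low within 2D. The log2 fold change was -3.31 (SE 0.40, adjusted p by limma 4.6e-04). With only mice 4 and 5, it was -2.81 with an adjusted p of 0.0898 from limma.

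Tubb3, the class III beta tubulin that serves as a neuronal marker and is also made by some cultured stromal cells, was at 95.7, 34.8, 31.6 and 102 normalized FPKM in 2D. In 3D it was at 0.0855, 0.519, 0.204 and 0.252. Mice 2 and 5 were again the high 2D libraries. The log2 fold change of -5.54 (SE 0.41, adjusted p by limma 4.4e-05) was that of the largest fall among the isotypes, and with a pseudocount of 0.1 it was -7.43. In 3D, Tubb3 rested on an estimated 3.52, 18.1, 5.89 and 7.04 fragments, so its level there is known only roughly. Of 8 neuronal and glial markers, 1 was called higher in 3D and 0 lower, Sox10, which was at most 0.0865 normalized FPKM in every library.

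Tubb2b, a beta isotype of neural progenitors, was at 74.7, 43.1, 65.2 and 61.8 normalized FPKM in 2D and at 0.715, 1.52, 4.64 and 0.667 in 3D. The 3D library of mouse 5 held the highest 3D value and still lay far under the 2D libraries. Its log2 fold change was -4.59 (SE 0.40, adjusted p by limma 8.8e-05). Tubb2a, its neighbour on chromosome 13, kept more of its level, at 76.3, 59.5, 82.8 and 79.4 normalized FPKM in 2D and 22.2, 30.5, 36.9 and 37.4 in 3D (log2 fold change -1.22, SE 0.18, limma's adjusted p = 0.00137). The sum of Tubb2a and Tubb2b was 151, 103, 148 and 141 in 2D and 22.9, 32.0, 41.6 and 38.0 in 3D.

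Among the alpha isotypes, Tuba1a, an isotype of developing neurons and many cultured cells, was the most abundant in 2D. In 3D its mean was the highest, but Tuba1b exceeded it in the libraries of mice 4 and 5. Tuba1a stood at 417, 323, 377 and 425 normalized FPKM in 2D and at 238, 46.7, 59.2 and 89.4 in 3D. The 3D library of mouse 1 lay far above the other 3D libraries and under every 2D library. The log2 fold change was -2.11 (SE 0.46, adjusted p by limma 0.00821), and without the 3D library of mouse 1 it was -2.59 (limma's adjusted p = 3.3e-04). When the 2D libraries of mice 3 and 4, those with mesothelial transcripts, were both left out, the fold change of Tuba1a was -2.25 and its limma adjusted p 0.0506. Leaving these out was chosen after seeing the data. The adjusted p of Tuba1a ranged from 3.3e-04 to 0.111 over the alternatives.

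Tuba1b, the alpha isotype of most proliferating cells, was at 239, 146, 144 and 283 normalized FPKM in 2D and at 117, 87.7, 68.2 and 67.0 in 3D. Its 2D libraries split as those of Tubb6 and Tubb3 did, with mice 2 and 5 high. The log2 fold change was -1.22 (SE 0.28, adjusted p by limma 0.00986), and with only mice 4 and 5 it was -1.37 (limma's adjusted p = 0.146). Tuba1c was at 60.006, 27.4, 31.5 and 64.5 in 2D and 30.9, 31.2, 23.0 and 17.9 in 3D, and the groups overlapped (log2 fold change -0.74, SE 0.32, limma's adjusted p = 0.103). It was called lower without the 2D library of mouse 3 (-0.95, limma's adjusted p = 0.0498) and without both of mice 3 and 4 (-1.25, limma's adjusted p = 0.0122), and the alternatives spanned 0.0122 to 0.461. The sum of Tuba1a, Tuba1b and Tuba1c was 716, 496, 552 and 773 normalized FPKM in 2D and 387, 166, 150.4 and 174 in 3D, without overlap.

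Tuba4a, the alpha isotype without an encoded final tyrosine, was at 18.8, 16.8, 18.1 and 27.6 normalized FPKM in 2D and at 18.3, 38.6, 44.1 and 40.8 in 3D. The 3D library of mouse 1 lay among the 2D libraries, and the 3 other 3D libraries lay above them. The log2 fold change of 0.73 (SE 0.29, 95% interval 0.05 to 1.40) had a limma adjusted p of 0.0812. Without the 3D library of mouse 1, Tuba4a was called higher (log2 fold change 1.03, limma's adjusted p = 0.00457, the lowest of the alternatives, which reached up to 0.344).

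**Figure D2:**
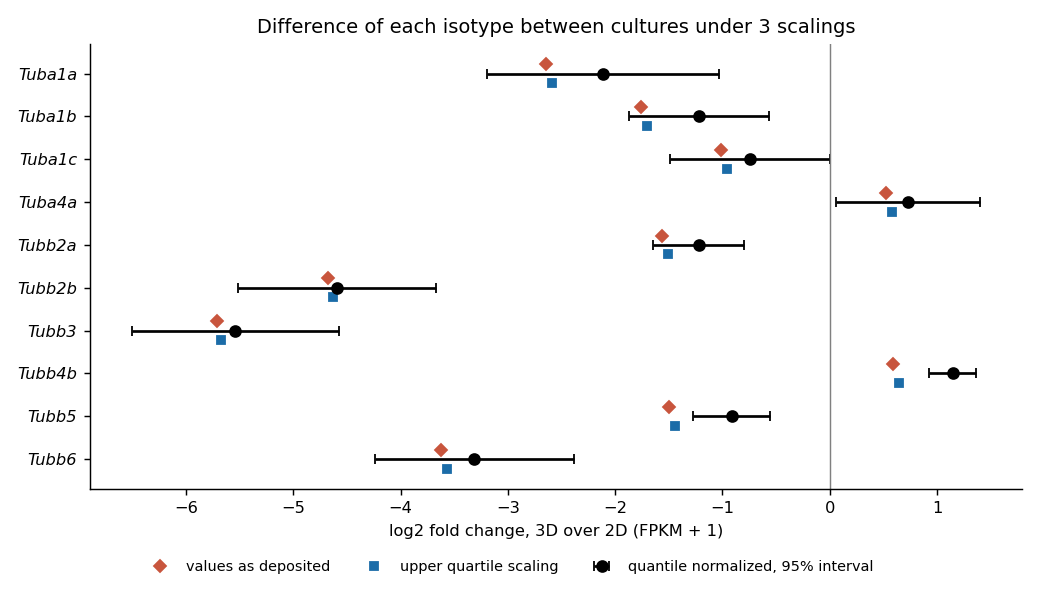
Log2 fold change of each isotype, 3D over 2D, on log2(FPKM + 1). Black points with bars are quantile normalized values with 95% intervals, red diamonds the values as deposited and blue squares values scaled to a common upper quartile. Each isotype keeps its direction under the 3 scalings, and the other scalings lie lower than the black point, as for Tubb4b with 0.59 and 0.64 against 1.15 and for Tubb5 with -1.50 and -1.44 against -0.91.

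The order of the beta levels in 2D was Tubb5, Tubb6, Tubb4b, Tubb2a, Tubb3 and Tubb2b by mean normalized FPKM. Tubb5 lay above all others without overlap, whereas Tubb6 and Tubb4b overlapped, as did Tubb2a, Tubb3 and Tubb2b. In 3D the order was Tubb4b, Tubb5, Tubb2a, Tubb6, Tubb2b and Tubb3, and of these neighbours only Tubb2a and Tubb6 overlapped in their libraries. For the alpha isotypes the order in 2D was Tuba1a, Tuba1b, Tuba1c and Tuba4a, with Tuba1c and Tuba4a overlapping at the low end. In 3D, Tuba1a and Tuba1b overlapped, and so did Tuba4a and Tuba1c, with Tuba4a the higher of both by mean (35.5 against 25.8 normalized FPKM).

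The alpha total of the 4 isotypes was 735, 512, 570.1 and 800.2 normalized FPKM in 2D and 405, 204, 194.5 and 215 in 3D. The beta total of the 6 isotypes was 1068, 848, 813 and 1176 in 2D and 674, 689, 643 and 580.5 in 3D. Both totals were lower in every 3D library than in any 2D library, and without normalization the 2D means were 3.70 times the 3D mean for alpha and 2.23 times for beta. The ratio of the alpha to the beta total was 0.688, 0.605, 0.702 and 0.680 in 2D and 0.6004, 0.297, 0.302 and 0.371 in 3D. The 3D library of mouse 1, with its high Tuba1a, was near the lowest 2D ratio. No test was made on these totals and ratios.

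As shares of the alpha or beta total, 7 of the 10 isotypes did not overlap between the groups, and the two-sided exact permutation test gave each of them p = 0.0286, the smallest that 4 against 4 libraries allow. The p-values of the 10 shares were not adjusted for their number. Within a library the shares of a family add up to its total, so they are not independent results. A rise of Tubb4b in the beta total by itself lowers the shares of the other beta isotypes. The share of Tubb4b in the beta total was 13.9%, 19.6%, 20.6% and 14.5% in 2D and 61.3%, 52.4%, 51.7% and 59.9% in 3D. On average it rose by 39.1 percentage points, from 17.2% ± 3.43 (SD, n = 4) to 56.3% ± 4.95 (SD, n = 4). On the values without normalization the difference was 38.8 points, so the share moved far less with the scaling than the level did.

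Tubb5 held 41.1%, 49.7%, 45.6% and 44.6% of the beta total in 2D and 33.6%, 38.8%, 39.4% and 31.7% in 3D. Tubb6 held 21.9%, 14.5%, 11.7% and 20.2% in 2D and 1.73%, 4.08%, 2.36% and 1.81% in 3D. Tubb3 and Tubb2b each held between 3.89% and 8.96% in 2D, and at most 0.0754% and 0.721% in 3D. Beta isotypes other than Tubb4b and Tubb5 thus made up 45.0%, 30.7%, 33.8% and 40.9% of the beta total in 2D and 5.14%, 8.80%, 8.85% and 8.41% in 3D. For Tubb2a, the share fell from 7.77% ± 1.62 (SD, n = 4) to 4.98% ± 1.40 (SD, n = 4). Without normalization this difference was -2.01 points and the exact permutation p was 0.200, so the groups then overlapped while the share still fell.

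Tuba4a took 2.55%, 3.28%, 3.17% and 3.45% of the alpha total in 2D and 4.52%, 18.9%, 22.7% and 19.0% in 3D, and it was the alpha isotype whose share did not overlap. Even in the 3D library of mouse 1, where its level was that of a 2D library, its share was above every 2D library. The share of Tuba1a was 56.8%, 63.0%, 66.1% and 53.1% in 2D and 58.9%, 22.9%, 30.5% and 41.5% in 3D (exact permutation p = 0.0857). The shares of Tuba1b (p = 0.371) and Tuba1c (p = 0.114) also overlapped in this exact permutation test. Without the 3D library of mouse 1, the shares of 9 isotypes did not overlap, Tuba1a and Tuba1c among them. On the values without normalization, the share of Tuba1c was higher in 3D with an exact permutation p of 0.0286.

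**Figure D3:**
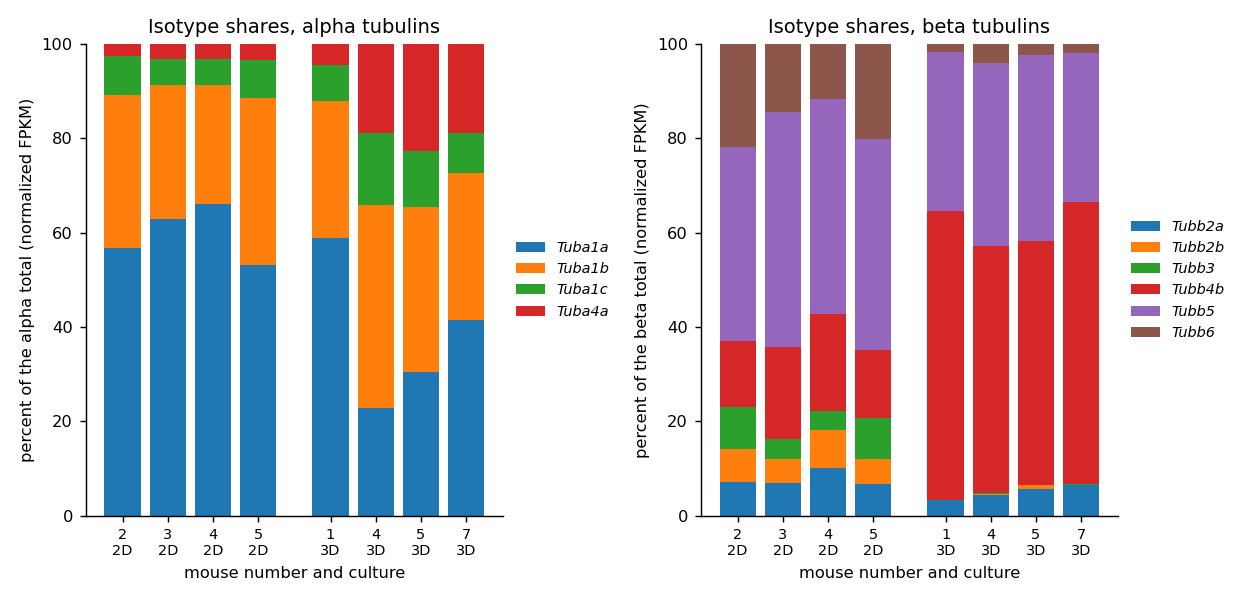
Share of each isotype in the alpha total (left) and beta total (right) of normalized FPKM, as a stacked bar for each of the 8 libraries. Tubb4b holds 13.9% to 20.6% of the beta total in 2D and 51.7% to 61.3% in 3D, and the 3D library of mouse 1 resembles the 2D libraries in its share of Tuba1a (58.9%).

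Within the mice that gave both kinds of library, the share of 9 of the 10 isotypes moved the same way in mouse 4 and mouse 5. Tubb4b gained 31.8 points in mouse 4 and 37.2 in mouse 5, and Tuba4a gained 15.7 and 19.2 points. The share of Tuba1b, the exception, differed by 17.7 points in mouse 4 and -0.317 in mouse 5.

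The 8 proliferation markers summed to 289, 171, 144 and 357 normalized FPKM in 2D and to 114, 143, 81.3 and 56.5 in 3D, and 6 of them were called lower in 3D. Pcna was the most abundant of them, and Ccnb1 had the largest fall (log2 fold change -2.11). Within 2D, mice 2 and 5 were highest in these markers and in Tubb3, Tubb6, Tuba1b and Tuba1c, and mice 3 and 4 held the mesothelial transcripts. Their part in the isotype values was not tested. With the 2D libraries of mice 3 and 4 left out, 1 isotype was called higher and 7 lower, with Tuba1c in place of Tuba1a. Of all 18862 genes, 3503 were then called higher and 4226 lower.

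The 250 bases upstream of the RefSeq start site are shown for the isotype that rose, Tubb4b, and for the isotype with the largest fall, Tubb3, from RefSeq (GRCm38.p6). The window of Tubb4b is chr2:25224703-25224952 on the minus strand, and that of Tubb3 is chr8:123411303-123411552 on the plus strand. Capitals mark CCAAT, or ATTGG where it lies on the other strand, a common promoter box.
Tubb4b: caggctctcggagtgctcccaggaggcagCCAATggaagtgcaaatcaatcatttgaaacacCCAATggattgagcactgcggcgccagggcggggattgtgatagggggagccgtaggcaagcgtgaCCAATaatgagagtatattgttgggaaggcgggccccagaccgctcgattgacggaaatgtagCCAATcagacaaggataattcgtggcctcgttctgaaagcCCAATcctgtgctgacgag
Tubb3: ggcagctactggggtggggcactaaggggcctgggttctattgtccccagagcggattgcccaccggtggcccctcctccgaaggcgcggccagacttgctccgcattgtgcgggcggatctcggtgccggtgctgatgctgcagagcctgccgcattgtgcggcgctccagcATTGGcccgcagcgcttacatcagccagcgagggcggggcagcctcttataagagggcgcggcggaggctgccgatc

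Tubb4b held 5 copies of CCAAT over both strands, and Tubb3 held 1. Of 32851 promoter windows of the same length, 33.8% held at least 1 copy, 2.79% at least 3 and 0.213% at least 5. Tubb5 held 2 copies, Tuba1a and Tuba1c 1 each, and Tuba1b, Tuba4a and Tubb2a 0. For Tubb3, Tuba1a, Tuba1b, Tuba4a and Tubb5 the GENCODE transcript starts within or before this window, so part or all of it is transcribed in that annotation. The motifs TATAA and GGGCGG were searched in the same windows. Tubb4b held 0 and 1 copies of them, and Tubb3 held 2 of each. Of all windows, 22.8% held TATAA and 32.7% held GGGCGG. These are matches of letters, and binding was not measured.

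Of the other alpha and beta tubulin genes, 4 of 6 were above 0 in a library, and Tuba8 was called higher in 3D (0.0755, 0.04998, 0.115 and 0 normalized FPKM in 2D, 0.313, 2.68, 1.88 and 1.03 in 3D). Tubb4a was at most 3.85 normalized FPKM, and Tubal3 and Tubb1 at most 0.0446. Of 12 genes of the gamma, delta and epsilon tubulins and the gamma-tubulin ring complex, which nucleates microtubules, 4 were lower and 0 higher in 3D. They were Tubgcp4 (log2 fold change -0.98), Tubg1 (-0.86), Mzt2 (-0.55) and Nedd1 (-0.41). The same 4 were called lower without normalization, and Mzt2 was not called under the upper quartile scaling.

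New tubulin passes from prefoldin to the CCT chaperonin and on to the folding cofactors. Of the 8 CCT subunits, 4 were called lower in 3D (Tcp1, Cct7, Cct8 and Cct6a, with log2 fold changes of -0.65, -0.59, -0.57 and -0.49), and their list had a median of -0.40. Without normalization all 8 were called lower and the median was -0.98. Of 6 prefoldin genes, Pfdn5 was higher (0.79) and Pfdn4 lower (-0.50), and Pfdn5 was not called without normalization. Among 7 folding cofactor genes, Tbce (0.73) and Tbca (0.43) were higher and Tbcd (-0.56) lower. Tbca turned to lower, without a call, on the values without normalization, and Tbcb and Arl2 were then called lower, which made 1 higher and 3 lower. Over all genes tested, 21.2% were called higher and 20.3% lower, and the normalized prefoldin and cofactor counts are close to these shares. Without normalization, 4279 of 18862 genes were called higher and 4069 lower. The counts of the lists above and below stand against the same shares.

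Tubulin messenger RNA is degraded when free tubulin is plentiful, through Ttc5, which recognises the start of the nascent chain, with Scaper and Cnot11, which recruit the deadenylase. The first 4 codons of Tubb4b are atgagggagATC and those of Tuba1a atgcgtgagTGC, with the fourth codon in capitals. Ttc5 stood at 13.6, 15.003, 14.6 and 13.9 normalized FPKM in 2D and at 39.4, 32.9, 32.8 and 34.7 in 3D (log2 fold change 1.23, SE 0.08, limma's adjusted p = 2.3e-05). Scaper was also higher in 3D (1.41, limma's adjusted p = 1.5e-04) and Cnot11 lower (-0.62, limma's adjusted p = 0.00724). The 3 genes kept these calls without normalization.

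The enzymes of the tyrosination cycle were lower in 3D. Ttl, the ligase that restores the final tyrosine, stood at 7.35, 6.69, 5.79 and 7.63 normalized FPKM in 2D and at 2.90, 3.25, 2.40 and 2.57 in 3D, without overlap (log2 fold change -1.06, limma's adjusted p = 8.1e-04). The carboxypeptidases that remove the tyrosine, Vash1 and Vash2, had log2 fold changes of -1.10 and -1.90. Vash1 was at 0.742 to 2.40 normalized FPKM in 2D and at 0.0373 to 0.114 in 3D, and Vash2 at 2.01 to 8.99 and at 0.361 to 0.790. At such low levels the scale of log2(FPKM + 1) understates the fold changes, and the 3D values are known only roughly. Their partner Svbp, listed as Ccdc23, had a log2 fold change of -0.44. The acetyltransferase Atat1 (0.89) and the deacetylases Hdac6 (1.27) and Sirt2 (0.57) were higher. All 7 genes of the list passed limma's adjusted threshold, but Sirt2 did not without normalization.

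Of 18 tested genes that add or remove glutamate or glycine chains on the tails, 7 were called higher in 3D and 1 lower, with a median log2 fold change of 0.50. The largest rise was that of Ttll6, a polyglutamylase of cilia, at 0, 0, 0 and 0.0352 normalized FPKM in 2D and 8.90, 4.46, 6.34 and 8.37 in 3D (log2 fold change 2.95, limma's adjusted p = 2.8e-05). The fall was that of Tpgs2, a subunit of the polyglutamylase complex (-1.24, limma's adjusted p = 0.00861). Without normalization 8 were called higher and 1 lower.

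Proteins that bind along the microtubule lattice moved in both directions. Of 11 genes, 4 were called higher and 5 lower in 3D, with the same counts without normalization. Map4, the main lattice protein of non-neuronal cells, was at 85.5, 88.3, 84.1 and 93.7 normalized FPKM in 2D and at 20.2, 18.2, 23.1 and 21.02 in 3D. Map6, a stabiliser of microtubules against cold, had the largest fall (log2 fold change -5.32, limma's adjusted p = 4.4e-06), followed by Map1b (-2.61), Map1a (-2.05), Map4 (-2.04) and Map7d1 (-1.99). Map7, an epithelial lattice protein that recruits kinesin-1, had the largest rise, from 0.301, 0.309, 1.09 and 0.0311 normalized FPKM in 2D to 36.1, 30.8, 23.5 and 19.2 in 3D (4.32, limma's adjusted p = 2.0e-05). Map2 (2.98), Dclk1 (2.49) and Mapt (2.07) were also higher, and Map1s and Dcx were not called.

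Of 11 proteins of the microtubule ends, 2 were called higher and 7 lower in 3D. Camsap3, which anchors minus ends at the apical side of epithelial cells, was at 0.224, 0.168, 0.126 and 0.406 normalized FPKM in 2D and 9.58, 7.94, 6.57 and 6.66 in 3D (log2 fold change 2.81, limma's adjusted p = 1.1e-05). Its relatives Camsap1 (-0.53) and Camsap2 (-0.45) were lower. Clasp1 had the largest fall (-1.02), and Clip2 (-0.94), Mapre1 (-0.79), Clip1 (-0.78) and Ckap5 (-0.45) were lower as well, while Mapre3 was higher (0.97). Of 12 destabilising and severing proteins 6 were called lower and 0 higher, with the mitotic depolymerase Kif2c at the largest fall (-1.79). Without normalization Spast and Fign were not called.

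**Figure D4:**
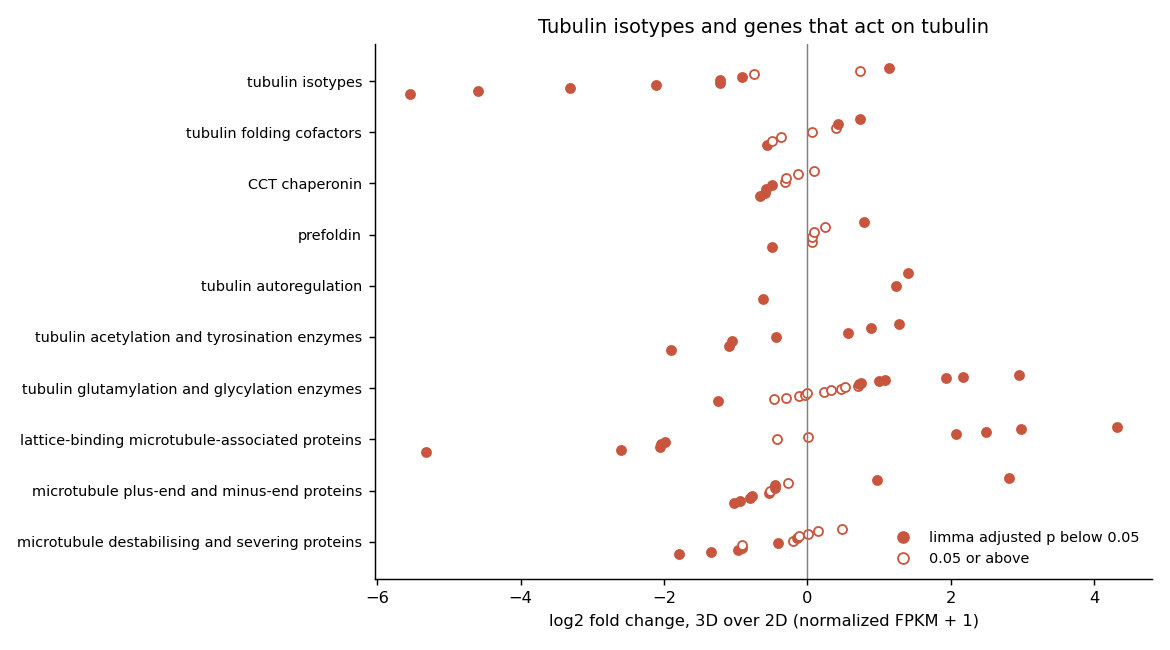
Log2 fold change of each gene, 3D over 2D, on normalized FPKM + 1, with the tubulin isotypes in the top line and a line for each list of genes that act on tubulin. Filled points have a limma adjusted p below 0.05. The isotypes run from -5.54 (Tubb3) to 1.15 (Tubb4b), and the lattice-binding proteins run from -5.32 (Map6) to 4.32 (Map7).

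Among 11968 genes averaging 1 FPKM or more, with transcripts from 300 nt up, the profiles over the 8 libraries nearest to that of Tubb5 were those of Memo1, Kpna3 and Frmd6. The root mean square difference of their centred log2 values from Tubb5 was 0.08, 0.11 and 0.11. Memo1 stood at 62.7, 55.9, 49.3 and 69.6 normalized FPKM in 2D and 28.0, 33.7, 29.3 and 24.6 in 3D. For Tuba1a the nearest profiles were those of Jam3, Ttyh2 and Plod1, at 0.30, 0.32 and 0.36. Plod1, at 41.0, 19.0, 23.5 and 43.9 in 2D and 24.5, 5.08, 6.14 and 7.88 in 3D, shared with Tuba1a the high 3D library of mouse 1.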

How the data were processed

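RNA of 8 cultures was sequenced as directional, paired-end libraries after removal of ribosomal RNA. The authors mapped trimmed reads with TopHat (mm10 per the submitters' processing notes) and deposited FPKM values per gene from Cufflinks. Versions and the annotation are not given in the sources used here. The methods name quantile normalization, which the deposited FPKM values do not include.

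Genes above 0 in any library (18862 of 24346) were quantile normalized, converted to log2(FPKM + 1) and fitted with limma 3.58.1 (R 4.3.3) with an intensity trend, without covariates. Adjusted p-values are Benjamini-Hochberg over these genes, and a gene was called below 0.05. Fold changes on this scale understate those of low genes. The model was tested on simulated data. Shares of the alpha and beta totals were compared with two-sided exact permutation tests (scipy 1.17.1). No p was given to totals or ratios. The p-values measure the spread between cultures of separate mice.

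Mice 4 and 5 gave libraries of both groups, per the labels, so their numbers pair them. Over 12577 genes, the deviations from the group means correlated at -0.05 in mouse 4 and -0.11 in mouse 5, and limma estimated -0.04 for a random effect of mouse. Depth was estimated from 875 genes with a single transcript, 3000 nt or longer, and 69.0% to 82.9% of low values lay within 0.15 of a whole fragment. Symbols of 95.7% of the genes matched GENCODE M21. Sequences came from this annotation and RefSeq, and motifs were searched on both strands.

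The isotypes and gene lists were chosen with earlier results of these data known. Named are all 10 isotypes, and of each list at least the called genes with the largest rise and fall. Some defining markers are named too, and lists of up to 12 genes in full where useful. For the alpha and the beta isotype with the highest mean FPKM over all libraries, the 3 genes of nearest profile are named. Alternatives were the values as deposited, upper quartile scaling, genes under 300 nt left out, only genes averaging 1 FPKM or more, 0.1 as the pseudocount, no trend, the mouse as a block or random effect, only mice 4 and 5, another denominator for shares, and each library left out. Leaving out the 2D libraries of mice 3 and 4 and exchanging mice 4 and 5 in the block were added after seeing the data. Promoter entries of 8 isotypes were used. Scripts ran in Python 3.11.15 with pandas 2.3.3 and matplotlib 3.10.9. Some items of the lists and sequences are not reported here.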

Additional observations from a re-analysis of the deposited data

Results flagged for a closer look

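Within the 2D group, the share of Tubb2a in the beta total came to 10.2% for mouse 4, against 6.75% to 7.14% for mice 2, 3 and 5. The gap to the nearest of the others was 0.886 of the range of the group. Levels and shares of the 10 isotypes were examined in this way in 40 groups, and chance sets apart a sample in about 1 in 20 groups. The level of Tubb2a in that library, 82.8 normalized FPKM, was close to the others (59.5 to 79.4), while its beta total was the lowest of the 2D group at 813 normalized FPKM.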

How the results depend on the processing

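All 10 fold changes kept their direction under each alternative for which they were recomputed, and so did the differences of the 10 shares. Of 180 recomputed fold changes, 165 kept their side of the threshold, 12 were no longer called and 3 became called. With the mouse as a replicate block, and also with a replicate block in which mice 4 and 5 were exchanged among the 3D libraries (chosen after seeing the data), 0 isotypes were called higher and 0 lower by limma, against 1 and 7. These blocks leave 1 residual degree of freedom, and 5216 and 5306 of all genes had an unadjusted p below 0.05. The mouse as a random effect changed no call of an isotype. With only mice 4 and 5, 1 isotype was called higher and 4 lower. Of all 18862 genes, 1486 were then called higher and 1127 lower, against 4000 and 3823 with all libraries. With each library left out in turn, 1 to 2 isotypes were called higher and 7 to 8 lower, and 7 to 9 shares did not overlap. Over all genes, 3380 to 4053 were then called higher and 3197 to 3824 lower. The second isotype called higher was Tuba4a without the 3D library of mouse 1, and the eighth called lower was Tuba1c without the 2D library of mouse 3. Leaving out a library leaves 3 against 4, for which no share can reach an exact p below 0.05, so shares were then compared by value alone. Of the shares, Tuba1c gained and Tubb2a lost the smallest exact p on the values as deposited. The causes were not tested. Depth limits the level of Tubb3 in 3D, and division of reads among near-identical copies limits the values of Tuba1a, Tuba1b, Tuba1c, Tubb2a, Tubb2b and Tubb4b.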

Other observations

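Markers of 3 further cell types were looked up. Of 5 endothelial markers 0 were called in either direction by limma (without normalization Emcn was called lower), and Kdr, the most abundant by its mean over all libraries, was at 0.188, 3.92, 6.34 and 0.155 normalized FPKM in 2D and at most 0.0160 in 3D. Of 5 macrophage and leukocyte markers, Cd14 and Cd68 were called higher in 3D. Cd14 stood at 3.49, 7.02, 6.81 and 3.33 normalized FPKM in 2D and 164, 81.7, 115 and 114 in 3D, whereas Ptprc, the common leukocyte antigen, was at most 0.0779 in every library. Of 4 tested adipocyte markers, Fabp4 and Lpl were called lower, and Adipoq was listed at 0 in every library. Fabp4 was at 17.3, 4.16, 81.1 and 6.26 normalized FPKM in 2D and at most 0.104 in 3D.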
